A study of Mus musculus with 6 samples.

Results

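The chemokines and atypical chemokine receptors of the intestinal lamina propria were measured in sorted Tslp reporter cells and in the cells that came through the sort with them. The set was taken by gene symbol: Ccl or Cxcl followed by digits, with an optional last letter for the Ccl genes, together with Cx3cl1, Xcl1 and Ackr1 to Ackr4. It holds 43 of the 33697 genes counted. Of these, 12 lie on chromosome 11, 11 on chromosome 5, 6 on chromosome 4, 4 each on chromosomes 1 and 8, 2 each on chromosomes 9 and 13 and 1 each on chromosomes 6 and 7.

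All cells came from Flare-TSLP mice on a C57BL/6 background, a knock-in line raised from 1 embryonic stem cell clone, in which the Tslp locus also drives the red fluorescent protein tdTomato. Live tdTomato+ cells of the lamina propria were sorted after Peyer's patches were removed and the epithelium stripped, and were counted by droplet single-cell RNA-seq of 3′ ends in 6 libraries: proximal jejunum (replicates 1 and 2), distal ileum (replicates 1 and 2), cecum and large intestine, the last 2 regions with 1 library each. Several biological samples went into each small intestinal tissue, and each library pools cells under 3 hashtag antibodies, but no source used here says which hashtag marks which mouse, so each library was counted as 1 sample and p-values measure the spread between libraries only. The replicate 1 libraries, the cecum and the large intestine share one set of hashtags, and the replicate 2 libraries carry the other. No treatment was given in the labels, and every group carries the reporter allele. The sort selected on the reporter at the time of isolation, while tdTomato UMIs were few (301 to 1081 per library), so that no cell was asked to carry one.

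Chemokines are small secreted proteins that guide leukocytes along gradients by binding G-protein-coupled receptors on the moving cell. They are grouped as homeostatic chemokines, which place cells in tissues and lymphoid organs at rest, and inflammatory chemokines, many of which are induced by interferon or NF-kB. The atypical receptors bind chemokines without driving migration and remove, carry or store them, so that they shape the gradients that lymphatic vessels and fibroblasts of the gut lay down.

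After filters on genes, UMIs and mitochondrial share and the removal of predicted doublets, 93558 cells remained. They were placed in classes by marker genes that include no member of the set: 72176 were fibroblast-like, 15452 LEC-like (lymphatic endothelial), 1420 blood endothelial-like, 1000 B or plasma cell-like, 941 myofibroblast or smooth muscle-like, 686 pericyte-like, 340 T cell or ILC-like and 273 myeloid-like. Near the cut between classes lay 1134 cells (1.21%). The fibroblast subsets named here are clusters of the fibroblast-like cells that carry the markers of SEMFs (subepithelial myofibroblasts), VTTs (villus tip telocytes), crypt-base trophocytes and Pi16+ universal fibroblasts, and members of the set were kept out of the genes used to cluster. Each class was measured only in libraries with at least 20 of its cells. Median UMIs per cell were 8214 in fibroblast-like and 6044 in LEC-like cells. Tslp and tdTomato UMIs were at 0 in T cell or ILC-like, blood endothelial-like, glia-like and epithelial-like cells, so their place in the sort is not shown by reporter transcripts. Between 38 and 118 cell barcodes were shared by each pair of libraries.

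All levels are in CPM: UMIs were summed over the cells of a class in a library and scaled to a total of 1000000. Because 3′ ends were counted, levels of different genes were not scaled by gene length. Beside them stands the free RNA of the same library, the profile of barcodes with 100 or fewer UMIs, which held 2.90 to 3.82% of all UMIs. On build GRCm39, Ccl21a lies at chr4:42772859-42773995, Ackr3 at chr1:90131689-90144473, Ackr4 at chr9:103961356-104004132, Ackr2 at chr9:121727421-121741249, Cxcl12 at chr6:117144945-117158328 and Cxcl14 at chr13:56436352-56444603, each span being the annotated gene. Near-identical copies stay uncertain: the transcripts of Ccl21a (872 bases) and Ccl21d (870 bases) differ by 8 single-base edits, those of Ccl21d and Ccl21b by 1, and Ccl27a and Ccl27b are copies of each other as well.

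The windows just before the start sites of 6 members are printed because these genes carry differences between classes or regions described below. Each holds the 250 bases upstream of the RefSeq start, on build GRCm38.p6, 5′ to 3′ on the gene's own strand, in lower case, with motif matches in capitals. The Ccl21a window (chr4:42773992-42774241, minus strand) lies upstream of the main lymphatic chemokine gene, Ackr4 (chr9:104126644-104126893, minus strand) marks trophocyte-like cells, Cxcl14 (chr13:56296552-56296801, minus strand) marks SEMF-like and VTT-like cells, Cxcl9 and Cxcl10 (chr5:92328080-92328329 and chr5:92348890-92349139, both minus strand) are the interferon-induced pair, and Ccl8 (chr11:82114935-82115184, plus strand) was higher in the large bowel in each class compared, as was its free RNA.
Ccl21a: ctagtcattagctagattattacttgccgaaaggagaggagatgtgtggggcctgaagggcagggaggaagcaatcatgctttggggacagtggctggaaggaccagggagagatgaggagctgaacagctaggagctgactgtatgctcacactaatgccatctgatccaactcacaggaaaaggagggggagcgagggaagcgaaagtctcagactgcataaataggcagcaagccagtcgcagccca
Ackr4: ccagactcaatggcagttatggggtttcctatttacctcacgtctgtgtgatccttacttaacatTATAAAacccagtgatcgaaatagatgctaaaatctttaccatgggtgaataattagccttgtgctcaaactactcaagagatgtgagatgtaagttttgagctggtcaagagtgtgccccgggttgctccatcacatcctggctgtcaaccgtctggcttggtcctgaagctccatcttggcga
Cxcl14: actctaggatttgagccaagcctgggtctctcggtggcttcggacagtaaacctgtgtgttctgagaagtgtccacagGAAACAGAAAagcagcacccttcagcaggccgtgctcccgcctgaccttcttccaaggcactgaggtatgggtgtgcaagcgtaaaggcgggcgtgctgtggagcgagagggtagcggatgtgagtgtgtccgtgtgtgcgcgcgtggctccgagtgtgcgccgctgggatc
Cxcl9: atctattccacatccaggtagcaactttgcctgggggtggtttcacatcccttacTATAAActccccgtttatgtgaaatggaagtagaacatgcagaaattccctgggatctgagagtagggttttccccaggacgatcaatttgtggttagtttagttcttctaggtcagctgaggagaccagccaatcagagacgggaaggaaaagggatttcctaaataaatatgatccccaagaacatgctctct
Cxcl10: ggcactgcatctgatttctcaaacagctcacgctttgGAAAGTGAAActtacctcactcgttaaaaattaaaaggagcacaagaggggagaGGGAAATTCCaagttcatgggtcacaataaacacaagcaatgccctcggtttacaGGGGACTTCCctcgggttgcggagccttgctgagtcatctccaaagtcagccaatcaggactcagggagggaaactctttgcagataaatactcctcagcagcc
Ccl8: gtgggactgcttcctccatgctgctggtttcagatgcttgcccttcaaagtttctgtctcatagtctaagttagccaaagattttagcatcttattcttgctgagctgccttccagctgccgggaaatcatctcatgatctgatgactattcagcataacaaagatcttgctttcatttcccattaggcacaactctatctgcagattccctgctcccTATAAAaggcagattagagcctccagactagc

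Both strands of the windows were searched for an NF-kB-type motif (GGG, then 3 bases of any kind, then TTCC), an interferon response core (GAAA, then 2 bases of any kind, then GAAA) and a TATA box (TATAAA), and matches of different motifs may overlap. Windows were matched for 32 of the 43 members, leaving Ccl11, Ccl2, Ccl24, Ccl26, Ccl4, Ccl5, Ccl7, Cxcl11, Cxcl16, Cxcl17 and Cxcl5 without one. The NF-kB-type motif stood in windows of 7 members (Ccl1, Ccl20, Ccl9, Cxcl1, Cxcl10, Cxcl2 and Cxcl3) and in 4.65% of all 32851 windows. The interferon response core stood in 3 (Ccl19, Cxcl10 and Cxcl14) and in 2.98% of all windows. The TATA box stood in 12 members and in 12.4% of all windows. Cxcl10 held 2 NF-kB-type matches and 1 interferon core, whereas the Cxcl9 window held a TATA box only, 195 to 190 bases before the start. The Ccl21a and Ccl21d windows differed by 3 edits. These matches are letters in a window and not shown sites.

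In all, 33 of the 43 members reached a mean of 20 CPM in a class or cluster measured in at least 4 libraries. The other 10 (Ccl27a, Ccl21d, Ccl21b, Ccl27b, Cxcl3, Cxcl15, Ccl26, Cxcl17, Ccl1 and Ccl28) stayed below it, with highest means between 0.00865 and 14.6. Among named classes, the highest mean fell in myeloid-like cells for 11 of the 33, in SEMF-like cells for 6, in LEC-like, T cell or ILC-like, blood endothelial-like and pericyte-like cells for 3 each, in universal fibroblast-like cells for 2, and in VTT-like and trophocyte-like cells for 1 each. The map of mean levels by class also draws cluster 5, an unnamed cluster of fibroblast-like cells described below. There, Cxcl12, Cxcl9, Cxcl10, Cxcl13, Cxcl5, Ccl19, Ccl2, Ccl7 and Cx3cl1 had higher means than in any named class. Cxcl10, for example, held 2641 there against 305 in SEMF-like cells. With clusters left aside, the 6 members highest in SEMF-like cells were Cxcl12, Cxcl14, Cxcl9, Cxcl10, Cxcl13 and Cxcl5. The 11 highest in myeloid-like cells included Ccl3, Ccl4, Ccl8, Cxcl2 and Cxcl16.

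**Figure D1:**
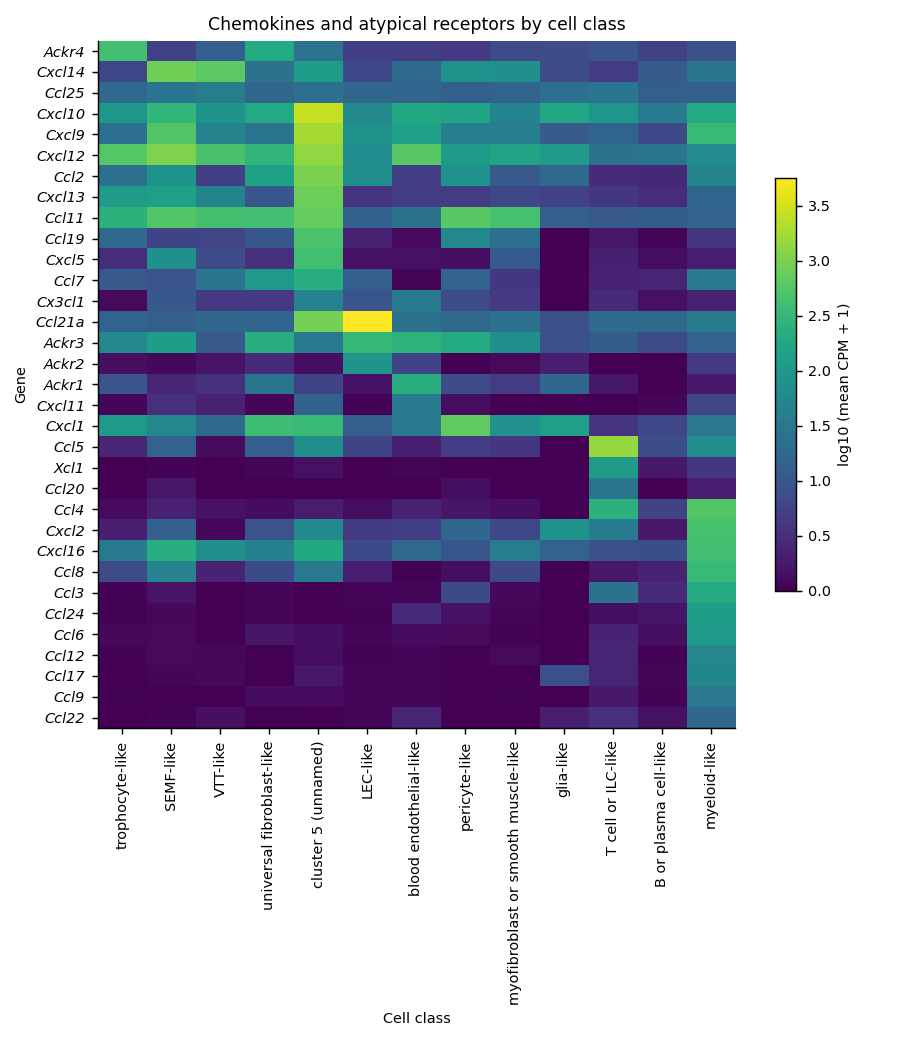
Mean level over libraries of the members that reached 20 CPM, and of all 4 atypical receptors, by cell class. Colour gives log10 (mean CPM + 1), 13 classes or clusters are columns and genes are ordered by the column of their highest mean, and the brightest cell is Ccl21a in LEC-like cells (mean 5660.4).

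A stricter count, made over named classes and not over clusters known by number, asked for a mean of 5 CPM and at least 3 times the free RNA of the same library in every library measured. It was met by 18 members, 14 of them in a single class, and by 17 and 13 if a level of 0 did not count as above a free level of 0, a choice made after seeing the data. Those that passed were Ackr2 and Ccl21d in LEC-like cells, Ackr1, Cxcl11 and Cx3cl1 in blood endothelial-like cells, Xcl1, Ccl5 and Ccl4 in T cell or ILC-like cells, Cxcl2, Ccl24, Cxcl16, Ccl12, Ccl6, Ccl3 and Ccl4 in myeloid-like cells, Cxcl14 in VTT-like cells and Cxcl15 in myofibroblast or smooth muscle-like cells. Cxcl15 is the member that turned on this choice: it held 35.6, 17.7, 6.09 and 6.37 in proximal 1, proximal 2, distal 1 and distal 2, but both its level and its free level were 0 in cecum and large intestine. With free RNA taken from barcodes with 50 or fewer UMIs, Ackr2 and Ccl21d no longer passed and Ccl21a did. With classes from clusters of all cells, Cxcl16, Ccl6, Ccl9 and Ccl28 no longer passed and Ccl17 and Ccl22 did. Glia-like cells passed for Cxcl2 as well, and Ccl28, Ccl9, Ccl6 and Cx3cl1 passed in epithelial-like cells, which were measured in the large intestine alone. Classes measured in fewer libraries had fewer values that could miss the count. VTT-like cells were measured in the 4 small intestinal libraries only, with Cxcl14 at 4.07 to 10.1 times its free level. In SEMF-like cells of all 6 libraries, cecum and large intestine among them, Cxcl14 was 1.62 to 14.2 times its free level. No member passed in the fibroblast-like cells as a whole. Cxcl12 there was 0.982 to 1.33 times and Ccl11 0.876 to 1.36 times its free level. Fibroblast-like cells were 72176 of the 93558 cells, so that much of the free RNA may be their own, which was not tested. The count cannot separate the 2 in so large a class, and a miss there does not show that a gene is not expressed. Ccl21a in LEC-like cells was 2.89 to 51.5 times its free level and missed the count through the lowest value.

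Of the 4 atypical receptors, Ackr2 and Ackr3 had their highest mean in LEC-like, Ackr4 in trophocyte-like and Ackr1 in blood endothelial-like cells. Ackr2, which takes up and degrades inflammatory CC chemokines, was a lymphatic transcript. Its level in LEC-like cells ran from 53.8 over a median of 66.3 to 164 across the 6 libraries, and in fibroblast-like cells from 0.157 over 0.455 to 3.10. The ranges did not overlap, and blood endothelial-like cells held 2.72 to 10.1 in 5 libraries. A UMI of Ackr2 was found in 25.7 to 64.6% of LEC-like cells against 2.04 to 6.10% of blood endothelial-like cells, at like depth (median 6044 and 6148 UMIs per cell).

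Ackr3, which scavenges CXCL12 and CXCL11, was shared more widely. LEC-like cells held 256, 286 and 447 (lowest, median and highest of 6 libraries), and blood endothelial-like cells 269, 241, 262, 295 and 274 in proximal 1, proximal 2, distal 1, distal 2 and large intestine. Fibroblast-like cells as a whole held 40.1, 62.7 and 248, with the cecum and large intestine on top. These levels were 0.515 to 0.927 times the free RNA, which was 268 in cecum and 177 in large intestine against 53.7 to 122 in the small intestine. Within the fibroblast-like cells, universal fibroblast-like cells held 135, 232 and 323 and VTT-like cells 10.1 ± 3.62 (SD, n = 4). The neighbours in this order, LEC-like, blood endothelial-like and universal fibroblast-like cells, overlapped in their ranges.

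Ackr4, which scavenges the CCR7 and CCR9 ligands CCL19, CCL21 and CCL25, was a fibroblast transcript with its highest level in trophocyte-like cells. These held 427, 355, 563 and 444 in the 4 small intestinal libraries and 375 in the 20 cells of the large intestine. Universal fibroblast-like cells held 149.9, 191 and 246 (lowest, median and highest of 6), while SEMF-like cells held 2.55, 4.24 and 6.81 and LEC-like cells 1.31, 3.99 and 6.55. SEMF-like and LEC-like levels overlapped each other and lay at 0.0326 to 0.0634 times the free RNA. A UMI of Ackr4 was found in 80.0 to 93.1% of trophocyte-like cells and in 2.12 to 5.00% of SEMF-like cells (median 8789 and 8130.0 UMIs per cell).

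Ackr1, which carries chemokines across the endothelium of venules, was highest in blood endothelial-like cells at 105, 120.2, 296, 98.4 and 522 in proximal 1, proximal 2, distal 1, distal 2 and large intestine. The large intestine stood highest. Fibroblast-like cells held 4.57, 6.17 and 25.5 and LEC-like cells 0.213, 0.519 and 0.776 (lowest, median and highest of 6), below the blood endothelial-like range in both cases.

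The first question put to the 6 libraries is which chemokines the 2 chief reporter-positive lineages supply. In the comparison of LEC-like with fibroblast-like cells, library by library, 29 of the 43 members passed the filter on low counts, of which 6 were higher in LEC-like cells and 16 lower (edgeR quasi-likelihood test, Benjamini-Hochberg adjusted p under 0.05 over 17905 genes). Over all genes tested, 31.6% were called higher and 36.0% lower. The median log2 difference of the members was -0.561 against -0.0522 over all genes. The 6 higher members were Ccl21a, Ccl21d, Cxcl17, Cx3cl1, Ackr2 and Ackr3, and the 16 lower ones were 14 ligands, Ackr1 and Ackr4.

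Ccl21a encodes the CCR7 ligand that draws dendritic cells and T cells into lymphatic vessels. Its level in LEC-like cells ran from 2240.0 over a median of 3402 to 11198 across 6 libraries, with the cecum (10974) and large intestine (11198) far above the small intestine, and in fibroblast-like cells from 5.93 over 16.8 to 35.1. The difference was 8.19 on the log2 scale (SE 0.64, edgeR adjusted p = 7.90e-06), and the groups did not overlap. A UMI was found in 98.5 to 99.6% of LEC-like cells and in 5.10 to 20.7% of blood endothelial-like cells. Ccl21d UMIs amounted to 0.147 to 0.318% of the Ccl21a UMIs in LEC-like cells, and its share cannot be told apart from reads of Ccl21a placed on the copy.

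The copy Ccl21d was called higher in LEC-like cells at 4.03 to 34.9, against 0 to 0.0298 in fibroblast-like cells, where each library held at most 3 UMIs of it, so that no fold is given. The mucosal chemokine Cxcl17 was higher by 3.26, at 4.70 ± 1.58 against 0.459 ± 0.0994 CPM (SD, n = 6). Of the receptors, Ackr2 was higher in LEC-like cells by 7.28 (SE 0.51, edgeR adjusted p = 4.14e-06) and Ackr3 by 1.91 (SE 0.30, edgeR adjusted p = 5.59e-04) on the log2 scale, each in 6 of 6 libraries. Cx3cl1, the membrane-bound ligand of CX3CR1, was higher by 1.86 (SE 0.56, edgeR adjusted p = 0.0175) but in 4 of 6 libraries, since the cecum held 18.5 in fibroblast-like and 6.98 in LEC-like cells. The Cx3cl1 call was lost without proximal 1 (1.76), proximal 2 (1.56), distal 1 (1.59) or distal 2 (1.64). Ackr4 was lower in LEC-like cells by a log2 difference of -5.18 (SE 0.11, edgeR adjusted p = 2.97e-08), in all 6 libraries.

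Cxcl12, the CXCR4 ligand that retains and positions many leukocytes, was the most abundant fibroblast member. Fibroblast-like cells held 646, 799 and 1251 (lowest, median and highest of 6 libraries) and LEC-like cells 53.1, 63.7 and 81.7, a log2 difference of -3.69 (SE 0.14, edgeR adjusted p = 1.21e-07). The LEC-like level was 0.0546 to 0.117 times the free RNA. Ccl11 (eotaxin, the CCR3 ligand of eosinophils) held 297, 434 and 594 in fibroblast-like and 9.19, 11.6 and 23.3 in LEC-like cells, a log2 difference of -5.01 (SE 0.14, edgeR adjusted p = 3.41e-08). Neither gene overlapped between the groups.

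Cxcl13, the CXCR5 ligand that organises B cell follicles, held 29.8, 95.9 and 183 in fibroblast-like and 0.886, 2.23 and 5.69 in LEC-like cells, a log2 difference of -5.10 (SE 0.12, edgeR adjusted p = 3.13e-08). The other ligands lower in LEC-like cells were Cxcl5 (log2 difference -5.13), Cxcl14 (-4.86), Ccl8 (-4.42), Cxcl16 (-4.09), Ccl19 (-3.44), Cxcl11 (-3.28), Cxcl1 (-3.11), Cxcl9 (-1.35), Cxcl10 (-1.25), Ccl27a (-0.45) and Ccl25 (-0.26), with Ackr1 at -3.66. For Cxcl9, Cxcl10, Cxcl11, Ccl27a and Ccl25 the ranges of the 2 classes overlapped although each library had the same order. The calls of Ccl25 without distal 2 (-0.21) and of Ccl27a without proximal 1 (-0.40) were lost. Ccl2 and Ccl7, ligands of CCR2, were not called: Ccl2 held 21.7, 71.3 and 116 in LEC-like and 24.6, 55.7 and 117 in fibroblast-like cells (log2 difference 0.46, SE 0.39).

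**Figure D2:**
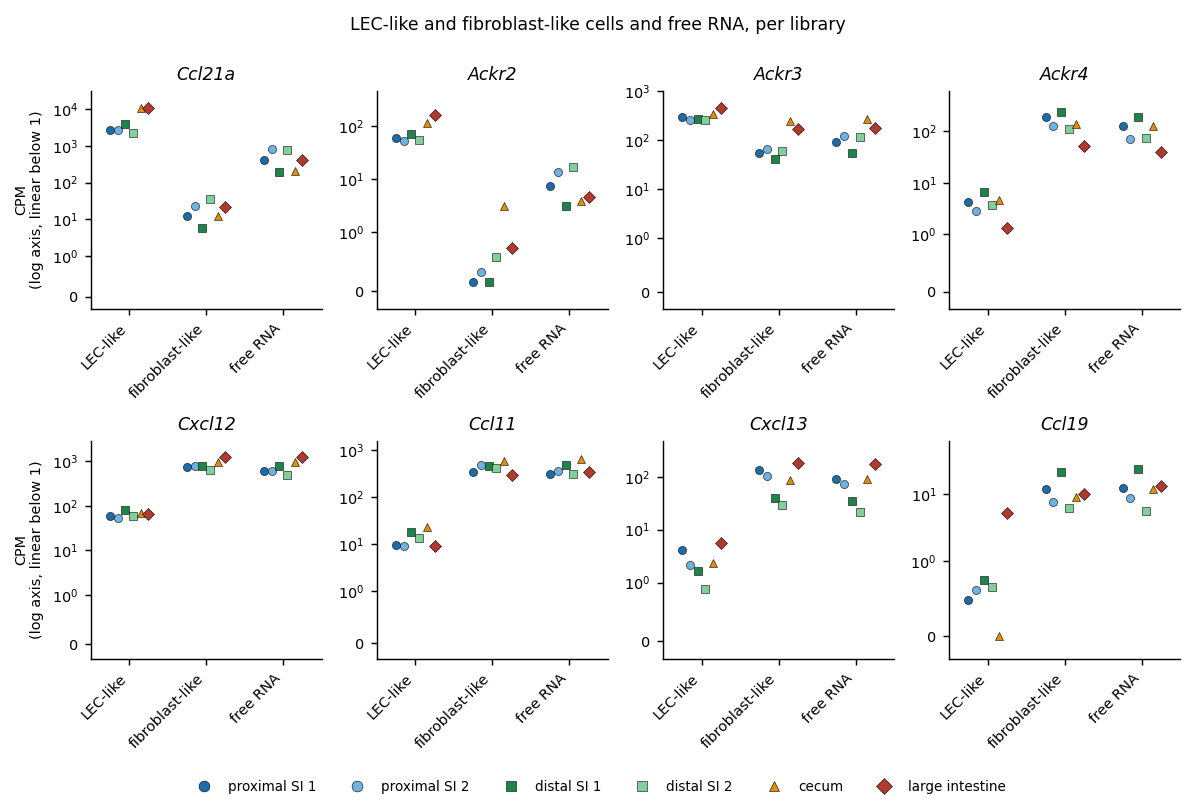
Level of 8 members in LEC-like cells, fibroblast-like cells and the free RNA, 1 point per library (colour and shape), in CPM on an axis that is logarithmic above 1 and linear below. Ccl21a and Ackr2 lie higher in LEC-like cells in each of the 6 libraries, Ackr4, Cxcl12, Ccl11, Cxcl13 and Ccl19 lie lower, and for the fibroblast genes the free RNA follows the fibroblast-like level.

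The next comparisons ask how the named fibroblast subsets differ in the ligands, within the 4 small intestinal libraries. These subsets do not cover all fibroblast-like cells. Unnamed clusters were left out, the largest being cluster 6 with 19513 cells, and Ccl11 had its highest mean in 1 of them (cluster 9, 751). Between SEMF-like and trophocyte-like cells 23 members were tested, of which 14 were higher in SEMF-like cells and 6 lower (edgeR, adjusted p under 0.05), where 31.4% and 36.0% of all 15229 genes were called. The members' median log2 difference was 0.946 against -0.0253 over all genes.

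Cxcl14, a homeostatic chemokine of epithelia and stroma, held 1154, 946, 1308 and 785 in SEMF-like cells of proximal 1, proximal 2, distal 1 and distal 2 against 4.80, 4.07, 5.90 and 5.99 in trophocyte-like cells. The log2 difference was 7.31 (SE 0.17, edgeR adjusted p = 2.13e-07), and a UMI was found in 61.9 to 98.7% of SEMF-like cells over all libraries against 3.68 to 5.00% of trophocyte-like cells. Ackr4 ran the other way, at -7.02 (SE 0.13, edgeR adjusted p = 1.24e-07). The trophocyte-like level of Cxcl14 in these 4 libraries lay at 0.0314 to 0.0639 times the free RNA.

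Cxcl9 and Cxcl10, the interferon-induced CXCR3 ligands, were also higher in SEMF-like cells. Cxcl9 held 739, 313, 1123 and 415 in the 4 libraries against 10.7 to 29.2 in trophocyte-like cells (log2 difference 4.52, SE 0.38, edgeR adjusted p = 5.17e-05). Cxcl10 held 333, 118, 583 and 161 against 43.3 to 103 (1.28, SE 0.46, edgeR adjusted p = 0.0436), and this call was lost without proximal 1 (0.82, edgeR adjusted p = 0.146) and without distal 1 (0.96, edgeR adjusted p = 0.148), with 10% free RNA subtracted (1.38, edgeR adjusted p = 0.0736) and at clustering resolution 1.0 (1.31, edgeR adjusted p = 0.0514). Both genes were highest in distal 1 and lowest in proximal 2.

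Neutrophil-directed ELR ligands split between the subsets. Cxcl5 held 56.1, 67.2, 163 and 101 in SEMF-like cells against 1.55, 1.42, 5.94 and 1.60 in trophocyte-like cells (log2 difference 4.87, SE 0.17, edgeR adjusted p = 9.00e-07), and Cxcl2 was higher by 3.14 (SE 0.36, edgeR adjusted p = 2.46e-04). Cxcl1, which binds the same receptor CXCR2, was lower in SEMF-like cells at 22.6, 9.88, 56.6 and 23.8 against 60.0, 92.9, 212 and 192 (-2.73, SE 0.30, edgeR adjusted p = 1.95e-04). The subsets did not overlap for these 3 genes.

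Among the other ligands higher in SEMF-like cells, Cxcl16, the membrane-bound CXCR6 ligand, held 278, 249, 352 and 198 against 31.1 to 41.1 in trophocyte-like cells (2.51, SE 0.10). Cx3cl1 (4.27), Ccl5 (2.58), Ccl8 (1.75), Ccl11 (1.06), Ccl2 (0.95), Ackr3 (0.68) and Ccl25 (0.56) were higher too on the log2 scale, Ccl25 being the CCR9 ligand of gut homing and at 1.53 to 2.41 times its free RNA in SEMF-like cells of these 4 libraries. Lower were Ackr1 (-4.24), Ccl7 (-2.72), Ccl19 (-2.46) and Ccl21a (-0.46). Differences are on edgeR's TMM scale, and Ccl21a was 16.5 ± 10.5 in SEMF-like and 18.0 ± 12.5 in trophocyte-like cells in CPM (SD, n = 4), with overlap. Over all libraries measured, Ccl21a was only 0.0152 to 0.0394 times its free RNA in SEMF-like and 0 to 0.0451 times in trophocyte-like cells. The part of the free RNA in the Ccl21a difference was not tested. Cxcl12 did not pass, with 780.1 ± 152 in SEMF-like and 584 ± 62.4 in trophocyte-like cells (SD, n = 4, log2 difference 0.04, SE 0.09), nor did Cxcl13, whose trophocyte-like level was 263 and 237 in the proximal and 40.9 and 21.0 in the distal libraries.

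VTT-like cells at the villus tip, a separate cluster, were compared with SEMF-like cells, and 21 members were tested. The SEMF name is loose here: cluster 4, which held this class in the small intestine, had 3 of 8 SEMF markers raised (Agt, Nrg1 and Wnt4). Summed SEMF markers ran from 1079.7 to 3662 CPM in SEMF-like cells of 6 libraries, but from 5104 to 7732 in VTT-like cells of 4. Of these, 2 were higher and 12 lower in VTT-like cells (edgeR, adjusted p under 0.05), where 12.1% of all 12445 genes were called higher and 11.4% lower, and the median log2 difference was -1.01 against -0.0241 over all genes. Ccl7 was higher, with 26.8, 11.4, 41.2 and 26.6 in VTT-like against 0.852, 0.938, 3.61 and 0.864 in SEMF-like cells (4.22, SE 0.38, edgeR adjusted p = 4.04e-06). The other was Ackr4 at 12.2 ± 8.34 against 4.58 ± 1.72 (1.30, SE 0.39, edgeR adjusted p = 0.0276), a call that was absent with predicted doublets kept (0.00) and without proximal 2, distal 1 or distal 2 (1.13, 1.06 and 1.30).

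VTT-like cells kept Cxcl14 at 729.6, 439, 932 and 488, below SEMF-like cells by -0.72 on the log2 scale (SE 0.11, edgeR adjusted p = 4.22e-04) in each library although the ranges overlapped. Their CXCL12 scavenger Ackr3 was at 10.1 ± 3.62 against 106 ± 24.5 (-3.50, SE 0.21, edgeR adjusted p = 1.02e-07). Ccl5 and Cxcl2 were called lower as well, at 5.74 to 37.4 and 3.82 to 36.8 in SEMF-like cells, but each rested on 1 UMI over all 4 libraries of VTT-like cells, so that no fold is given. Lower too were Cxcl5 (-3.96), Cxcl9 (-3.88), Ccl2 (-3.81), Ccl8 (-3.08), Cxcl16 (-1.93), Cxcl10 (-1.80), Cxcl13 (-1.13) and Cxcl12 (-0.71), whose call was lost without proximal 1 (-0.63, edgeR adjusted p = 0.0557). Ccl11 was not called (446 ± 105 against 575 ± 192, -0.32, SE 0.15). VTT-like cells numbered 49 to 158 per library, so that low levels there rest on few UMIs.

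Universal fibroblast-like cells, which carry Pi16 and Dpp4, were set against trophocyte-like cells with 22 members tested. Here 10 were higher and 3 lower (edgeR, adjusted p under 0.05), where 10.2% of 13835 genes were called higher and 11.0% lower, and the median log2 difference was 0.671 against -0.00863 over all genes. Ccl7 and Ccl2 had the largest differences of the 10 members called higher. Ccl7 held 34.1, 103, 67.7 and 183 against 4.07 to 11.3 (3.58, SE 0.36, edgeR adjusted p = 5.29e-05) and Ccl2 held 114, 89.6, 164 and 210.2 against 15.2 to 55.9 (2.26, SE 0.19, edgeR adjusted p = 1.78e-05). The ranges of neither gene overlapped.

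Cxcl1 held 266, 632, 189.7 and 616 in universal fibroblast-like cells against 60.0, 92.9, 212 and 192, higher in 3 of 4 libraries (1.57, SE 0.37, edgeR adjusted p = 0.0129). Distal 1 was the library with the opposite order, and without proximal 1, proximal 2 or distal 2 the call was lost (1.40, 1.16 and 1.54). Cx3cl1 (2.17), Cxcl2 (2.14), Cxcl14 (2.13), Ackr3 (1.98), Cxcl10 (1.37), Ackr1 (1.21) and Ccl11 (0.94) were the other members higher. Cxcl13 (-3.84), Ackr4 (-1.30) and Cxcl12 (-1.23) were lower, Cxcl12 at 275 ± 87.1 against 584 ± 62.4 (SD, n = 4) with no overlap. Cxcl2 lost its call without distal 2 (0.84, edgeR adjusted p = 0.508), where it held 24.8, and without proximal 2 (2.12), by DESeq2 (1.61) and at clustering resolution 1.0 (2.10). Cx3cl1 lost its call without any 1 of the libraries (1.70 to 2.60).

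**Figure D3:**
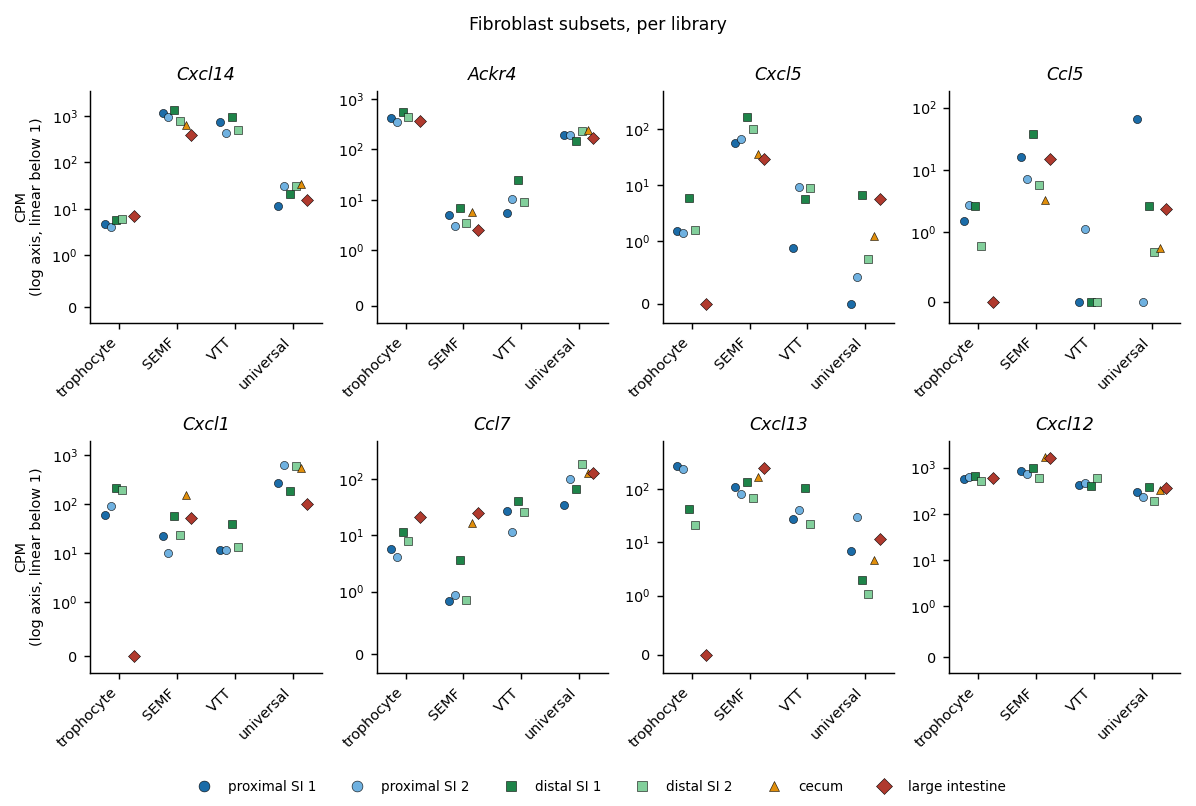
Level of 8 members in 4 fibroblast subsets, 1 point per library, in CPM on an axis that is logarithmic above 1 and linear below. Cxcl14 separates SEMF-like and VTT-like from trophocyte-like cells, Ackr4 does the reverse, and Ccl7 and Cxcl1 have their highest means of the 4 subsets in universal fibroblast-like cells, with distal 1 the exception for Cxcl1. A subset is drawn where a library held at least 20 of its cells.

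The large bowel (cecum and large intestine, 1 library each) was compared with the 4 small intestinal libraries to ask which members differ along the gut. In fibroblast-like cells 34 members were tested, 12 were higher in the large bowel and 1 lower (edgeR, adjusted p under 0.05), where 16.0% of 19816 genes were called higher and 14.3% lower. The median log2 difference was 0.794 against -0.0105 over all genes. The make-up of the fibroblasts moved with the region: SEMF-like cells were 5.37 to 17.1% of small intestinal fibroblast-like cells and 44.9% and 70.1% in cecum and large intestine, universal fibroblast-like cells 1.19 to 2.93% against 53.7% and 28.4%, and trophocyte-like cells 15.4 to 34.1% against 0.00798% and 0.198%. Different clusters held the SEMF-like class, cluster 4 in the small intestine and clusters 12 and 14 in the large bowel. Each regional difference was therefore also computed within SEMF-like cells and, as a choice made after seeing the data, within cluster 0, a universal fibroblast-like cluster of 169 to 2141 cells in each of the 6 libraries. At clustering resolution 1.0, an unnamed cluster shared the leading genes Rgs7, Zfp804b and Fxyd6 with cluster 0. It held 1 to 15 cells per small intestinal library, but 1412 in cecum and 758 in large intestine. The make-up of cluster 0 may thus differ between regions as well, which was not tested.

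Ccl8, a CCR2 and CCR8 ligand of monocytes and T cells, was higher in the large bowel in all these settings. Fibroblast-like cells held 4.76, 7.31, 7.29 and 5.75 in the small intestine against 82.2 in cecum and 53.3 in large intestine (3.49, SE 0.25, edgeR adjusted p = 6.08e-04). Within SEMF-like cells it held 10.6, 17.3, 9.87 and 5.92 against 160.5 and 70.7 (log2 difference 3.61), and within cluster 0 it held 0.770, 2.27, 2.83 and 1.89 against 7.87 and 6.96 (1.86). The regions did not overlap in any of these classes. Ccl8 ranked among the 10 leading genes of cluster 12 once members were counted, and its free RNA also ran from 5.70 to 23.0 in the small intestine and to 89.9 and 86.6 in cecum and large intestine. Cluster 0 lay below this free RNA in each library, and the part of the free RNA in the differences was not tested.

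Ccl7 was higher in the large bowel over all fibroblast-like cells, at 78.7 in cecum and 57.4 in large intestine against 4.14 to 8.94 (3.47, SE 0.36, edgeR adjusted p = 0.00174). It was also higher within SEMF-like cells, at 16.9 in cecum and 25.4 in large intestine against 0.852 to 3.61 (4.10). Within cluster 0 it was not, as cecum (75.5) and large intestine (145) lay inside the small intestinal range of 22.3 to 177. The SEMF-like level of Ccl7 was only 0.0877 to 0.323 times its free RNA. That free RNA was 114 in cecum and 79.3 in large intestine against 6.21 to 11.2 in the small intestine. Its part in the SEMF-like difference was not tested. Cxcl12 was higher over all cells, at 955 and 1251 against 646 to 801 (0.60, SE 0.18, edgeR adjusted p = 0.0415), and within SEMF-like cells, at 1706 and 1633 against 599 to 956 (1.28). In cluster 0 its difference of 0.36 did not pass (edgeR adjusted p = 0.358).

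For other members the difference depended on the class. Cxcl9 was higher over all fibroblast-like cells (138 and 332 against 75.3 to 127, 1.20, SE 0.35, edgeR adjusted p = 0.0397), while its log2 difference was -0.70 within SEMF-like cells and -0.97 within cluster 0, neither of which passed (edgeR adjusted p = 0.302 and 0.0897). Cxcl14 was higher over all cells (310.0 and 276 against 86.0 to 154, 1.19, SE 0.21, edgeR adjusted p = 0.00872), while SEMF-like cells of cecum (639) and large intestine (385) lay below the small intestinal 785 to 1308 (-0.84), and cluster 0 gave 0.70, neither of which passed (edgeR adjusted p = 0.0580 and 0.346). Cxcl10 gave 1.27 over all cells, 0.26 within SEMF-like cells and -1.54 within cluster 0, where it was called lower (edgeR adjusted p = 0.0430). Ackr3 gave 1.98 over all cells, with 40.1 to 66.2 in the small intestine against 248 in cecum and 163 in large intestine. It gave 0.79 within SEMF-like cells and -0.78 within cluster 0, where it did not pass (edgeR adjusted p = 0.160). Ackr1 gave 1.65 over all cells, 2.24 within SEMF-like cells and -1.11 within cluster 0, where it too was called lower (edgeR adjusted p = 0.0174). The SEMF-like level of Ackr1 was 0.0412 to 0.248 times its free RNA, whose part in the difference was not tested.

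The remaining members called in this comparison were Cxcl11 (3.20), Cx3cl1 (2.92), Ackr2 (2.75) and Ccl2 (1.32), all higher, and Ccl4 (-1.97), lower. Ccl4 held only 0.119 to 1.03 CPM in fibroblast-like cells of the 6 libraries, 0.0337 to 0.144 times its free RNA. That free RNA was 6.33 to 17.4 in the small intestine against 1.72 in cecum and 2.01 in large intestine. Its part in the Ccl4 difference was not tested. Within SEMF-like cells Cxcl11 gave 2.64 and kept its call, while Cx3cl1 gave 1.44 (edgeR adjusted p = 0.0865) and Ccl4 -3.10 (edgeR adjusted p = 0.0642) without one. Ccl2 gave 0.08 within SEMF-like cells (edgeR adjusted p = 0.940) and 0.08 within cluster 0 (edgeR adjusted p = 0.880). Ackr2 in both, and Cxcl11, Cx3cl1 and Ccl4 in cluster 0, did not pass the filter on low counts. Single libraries decided several of the values. Ackr1 was 25.5 in cecum and 6.89 in large intestine against 4.57 to 6.47 in the small intestine, and without the cecum its difference was 0.36 (edgeR adjusted p = 0.366). Ackr1 also lost its call without any 1 small intestinal library (1.56 to 1.76) and by limma-voom (1.31, adjusted p = 0.0919). Ackr2 gave 1.29 without the cecum and lost its call without proximal 1 (2.56) or proximal 2 (2.77) and with predicted doublets kept (0.94, edgeR adjusted p = 0.288). Cxcl9 gave 0.50 without the large intestine and lost its call without proximal 1, proximal 2 or distal 2 (1.06 to 1.30), by limma-voom (1.12) and with 10% free RNA subtracted (1.14). The Ccl2 call held only without distal 1 (1.12 without proximal 2, 1.13 without large intestine, 1.20 without proximal 1, 1.30 without distal 2 and 1.5 without cecum), and that of Ccl4 only without distal 2 (-2.61 to -1.49). With 10% free RNA subtracted the calls of Ccl2 (1.31) and Cxcl12 (0.55) were lost, and with classes from clusters of all cells those of Ccl2 (1.28) and Ccl4 (-1.69). Cxcl10 lost its call without large intestine (0.92), distal 2 (1.22) or proximal 1 (1.25). Cxcl12 kept its call only without distal 1, and gave 0.45 without large intestine, 0.52 without distal 2, 0.62 without either proximal library and 0.76 without cecum. The 12 members called higher became 6, 7 and 7 without proximal 1, proximal 2 and distal 2, where the share of all genes called higher fell from 16.0% to 9.39%, 9.43% and 11.1%. With the replicate 1 libraries of the small intestine only, which carry the hashtags of the large bowel libraries, 5 members were higher and 2 lower, beside 4.56% and 3.97% of all genes. The calls of Cxcl9 (0.89), Cxcl10 (0.99), Cxcl12 (0.50), Cxcl14 (1.29), Cx3cl1 (2.84), Ackr1 (1.41) and Ccl2 (1.01) were lost there. Ackr4 (135 in cecum and 51.5 in large intestine against 110.0 to 236), Ccl11, Cxcl1, Cxcl5, Cxcl13, Cxcl16 and Ccl25 were not called.

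In LEC-like cells, 22 members were tested between the regions, with 7 higher in the large bowel and 0 lower (edgeR, adjusted p under 0.05), where 9.76% of 14073 genes were called higher and 10.8% lower, 9 members having an unadjusted p under 0.05. Ccl21a held 2818, 2746, 3987 and 2240.0 in proximal 1, proximal 2, distal 1 and distal 2 against 10974 in cecum and 11198 in large intestine (1.88, SE 0.21, edgeR adjusted p = 4.98e-04), with no overlap. Ackr2 held 61.2, 53.8, 71.4 and 55.3 against 118 and 164 (1.21, SE 0.15, edgeR adjusted p = 9.58e-04), again with no overlap. The cecum and large intestine contributed 230 and 263 LEC-like cells, the small intestinal libraries 802 to 6186.

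Ackr3 was 337 and 447 in the large bowel against 256 to 299.6 (0.50, SE 0.14, edgeR adjusted p = 0.0322) and lost the call without the large intestine (0.24, edgeR adjusted p = 0.367), without proximal 2, without distal 2, with 10% free RNA subtracted (0.46), with no filter on low counts (0.43) and with replicate 1 small intestinal libraries only (0.46). Cxcl9 was 62.1 in cecum and 304 in large intestine against 25.7 to 34.9 (2.59, SE 0.40, edgeR adjusted p = 0.00282), and gave 0.97 without the large intestine. This was 0.275 to 0.895 times its free RNA, at 136 in cecum and 340 in large intestine against 47.6 to 124 in the small intestine. The part of the free RNA in the Cxcl9 difference was not tested. Ccl8 was 1.55 and 3.06 against 0.187 to 0.339 (2.99, SE 0.63), beside a free level of 89.9 and 86.6 against 5.70 to 23.0, whose part in the difference was not tested, and the call was lost without the large intestine (2.31). Ccl5 rested on the large intestine alone, at 21.0 against 0 in cecum and 1.26 to 3.20 in the small intestine, and without that library the large bowel group was the cecum at 0. The Ccl5 call was also lost by limma-voom (1.30, adjusted p = 0.475), by DESeq2 (2.33, adjusted p = 0.241), with predicted doublets kept (1.51, edgeR adjusted p = 0.138), with replicate 1 small intestinal libraries only (2.10) and without proximal 2 (2.38) or distal 2 (2.48). Cxcl12 (68.3 in cecum and 67.4 in large intestine against 53.1 to 81.7) and Ccl2 were not called.

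Whether the regional difference itself differed between the 2 lineages was tested with an interaction term, a choice made after the values were seen. Of 36 members tested, 1 was more positive in LEC-like than in fibroblast-like cells and 3 more negative (edgeR, adjusted p under 0.05), where 3.67% and 6.22% of 20031 genes were called. Cx3cl1 held 18.5 in cecum and 5.02 in large intestine in fibroblast-like cells, against 1.29 to 2.06 in the small intestine. In LEC-like cells Cx3cl1 held 6.98 in cecum and 4.81 in large intestine against 8.94 to 11.4, so the directions were opposite (difference -3.49, SE 0.41, edgeR adjusted p = 0.00197). Ackr3 was higher in the large bowel in both lineages, by less in LEC-like cells (-1.48, SE 0.30, edgeR adjusted p = 0.0182). The difference for Ccl21a, 1.81, did not pass (edgeR adjusted p = 0.186). The calls of Ccl2 (-1.77) and Cxcl9 (1.06) were lost when most single libraries were left out.

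**Figure D4:**
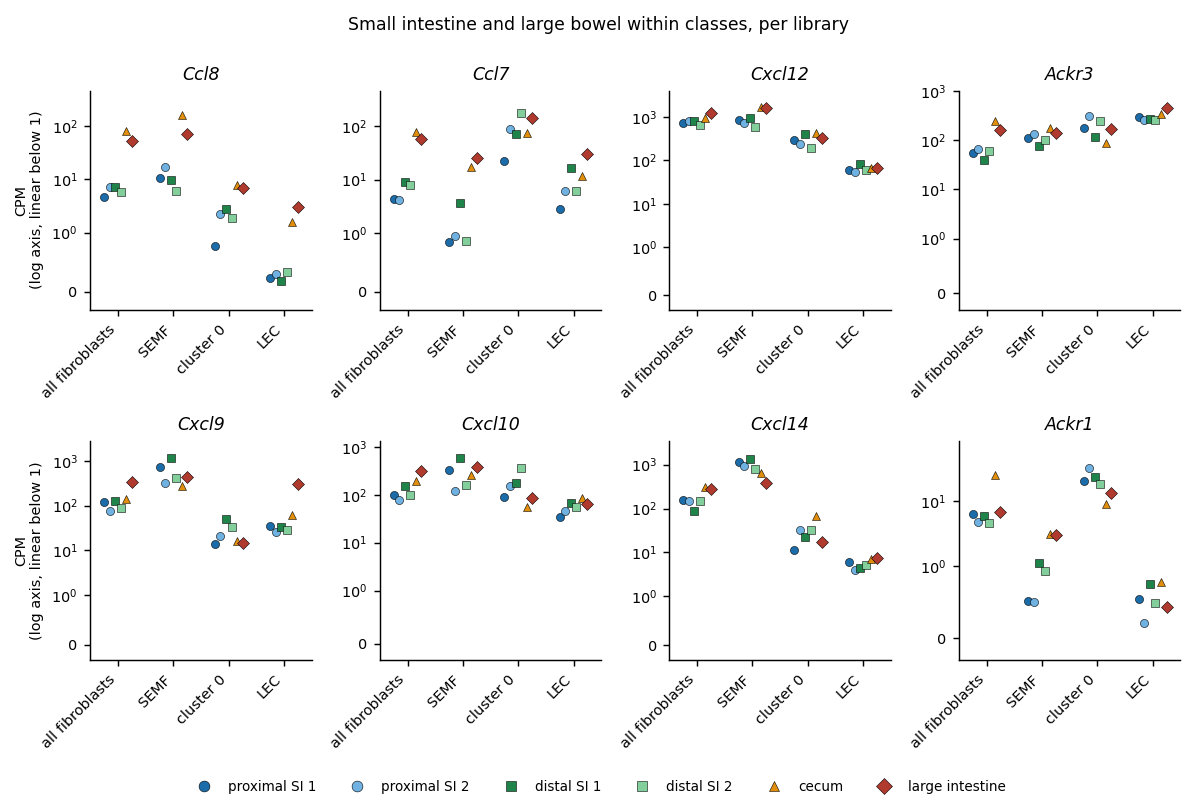
Level of 8 members in all fibroblast-like cells, SEMF-like cells, cluster 0 and LEC-like cells, 1 point per library, in CPM on an axis that is logarithmic above 1 and linear below. Ccl8 is higher in cecum and large intestine in every class drawn, while Cxcl9, Cxcl10 and Cxcl14 are higher there over all fibroblast-like cells, but passed the test in that direction neither within SEMF-like cells nor within cluster 0. The free RNA of Ccl8, not drawn, was higher there too.

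Distal ileum and proximal jejunum were compared with 2 libraries each. In fibroblast-like cells 0 of 32 members tested were called in either direction by edgeR, where 0.00519% of 19268 genes were called higher and 0.00519% lower, 5 members had an unadjusted p under 0.05, limma-voom called 0, and DESeq2 called 4 higher and 1 lower, beside 0.311% and 0.452% of all genes. With the replicate number, which runs with the hashtag set, as a block, edgeR called 5 higher and 1 lower, beside 0.576% and 0.882% of all genes. In LEC-like cells 0 of 25 were called by edgeR, where 0% of 15557 genes were called higher and 0% lower, 3 members had an unadjusted p under 0.05, and limma-voom and DESeq2 called 0 as well, while the block gave 4 higher and 1 lower, beside 0.945% and 0.759% of all genes. No source used here says that libraries of the same number share mice or a day. Groups that did not overlap in fibroblast-like cells included Cxcl13, at 29.8 and 40.4 in distal against 103 and 134 in proximal libraries (log2 difference -1.70, SE 0.25, edgeR adjusted p = 0.410), and Cxcl1, at 103 and 133 against 44.2 and 54.3 (1.31, SE 0.21, edgeR adjusted p = 0.436). Cxcl5 (32.1 and 34.5 against 12.6 and 20.2) and Ccl2 (41.5 and 69.8 against 24.6 and 28.7) did not overlap either, and these 4 genes were among those called under the block. With 2 libraries per region, such separation is frequent without any difference. The share of all genes that separated was not counted, so the 4 are a description only.

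A small cluster of the fibroblast-like cells held many members at once. This cluster 5, named by its number because no marker list named it, counted 449 of 72176 fibroblast-like cells (0.622%, 0.302 to 1.16% per library). At clustering resolution 1.0 the cluster led by Csmd1, Clu and Hdac9 held 884 cells, so the size depends on the resolution. Members of the set were not used to cluster, but other genes of the same cells were, so the levels in cluster 5 are a description. The leading genes of cluster 5 were Csmd1, Clu and Hdac9, with the interferon-induced Ifit3 and Mx1 among the first 10. Ccl19-ps2, by its name a pseudogene of Ccl19, was among these 10 too. The rule that kept members out did not cover it, so the Ccl19 level may not be independent of the clustering. Summed LEC markers in cluster 5 ran from 291 to 474 CPM, against 251 to 362 in all fibroblast-like cells, and B or plasma cell markers from 3.57 to 119. Summed trophocyte markers ran from 5329.9 to 8211 in cluster 5, against 6388 to 7088 in trophocyte-like cells and 1630.1 to 5721 in all fibroblast-like cells, and summed pericyte markers from 209 to 1426, against 108 to 1077 in all fibroblast-like cells.

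In cluster 5, Cxcl10 held 4791, 3559, 3938 and 2679 in proximal 1, proximal 2, distal 1 and distal 2, but 343 in cecum and 534 in large intestine. Cxcl9 held 647, 1493 and 3635 and Ccl2 141, 1004 and 1972 (lowest, median and highest of 6 libraries), with the cecum lowest for both. In this cluster Ccl19 was 8.92 to 103, Cxcl5 5.31 to 61.4, Cxcl9 3.43 to 76.4 and Ccl7 3.37 to 30.5 times its free RNA, at least 3 times in each of the 6 libraries. The follicle and T-zone chemokines were there too: Cxcl13 held 217, 543 and 1984, Ccl19, the other CCR7 ligand, 108, 323 and 1348, and Ccl21a 6.61, 461 and 3450.4. For these 3 the large intestine or cecum stood highest, opposite to Cxcl10. Ccl21a in cluster 5 fell in separate ranges, with 8.81 and 6.61 in the replicate 1 small intestinal libraries, 379.6 and 542 in the replicate 2 libraries and 1264 and 3450.4 in the large bowel. Ccl19 was 9.41 at the median over all fibroblast-like cells and 55.6 in pericyte-like cells, its highest mean in a named class. The counts of called members in the comparisons of fibroblast-like cells were the same with cluster 5 removed.

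**Figure D5:**
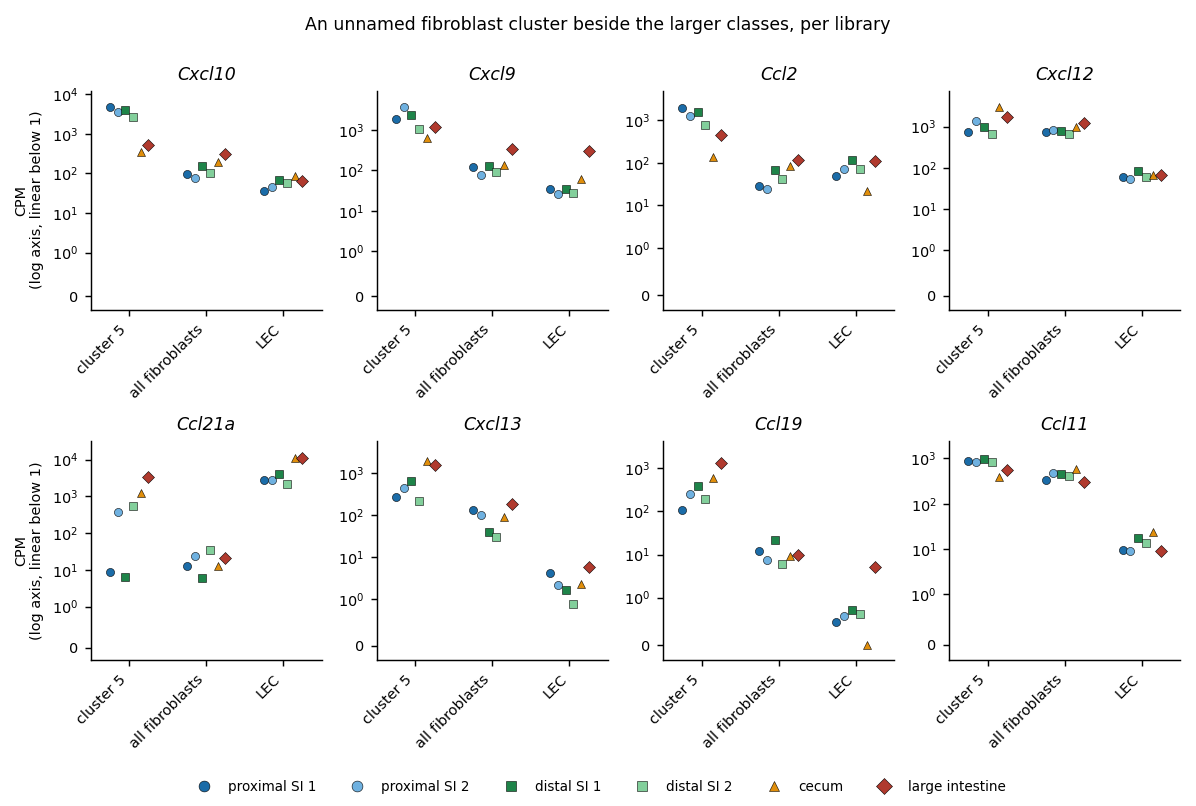
Level of 8 members in cluster 5, all fibroblast-like cells and LEC-like cells, 1 point per library, in CPM on an axis that is logarithmic above 1 and linear below. Cxcl10, Cxcl9 and Ccl2 lie higher in cluster 5 of the small intestine than of the cecum, while Ccl21a, Cxcl13 and Ccl19 are highest there in cecum or large intestine.

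Cells outside the 2 chief lineages came with chemokines of their own. T cell or ILC-like cells (60 to 107 in each small intestinal library) held Ccl5, an inflammatory chemokine made by effector lymphocytes, at 1158, 1899.6, 1113 and 1601 in proximal 1, proximal 2, distal 1 and distal 2, and Xcl1, the XCR1 ligand of cross-presenting dendritic cells, at 104, 218, 74.0 and 77.8. These were 18.1 to 108 and 20.4 to 221 times the free RNA. Ccl20, the CCR6 ligand, held 49.8, 1.47, 29.6 and 25.9 there, with proximal 2 far below the others. A UMI of Xcl1 was found in 11.4 to 23.4% of these cells against 0 to 0.0911% of LEC-like cells (median 5057 and 6044 UMIs per cell).

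Myeloid-like cells (27 to 80 per library, 5 libraries) held Ccl4, an inflammatory chemokine, at 537, 870.4, 557, 567 and 278, Cxcl2 at 319, 266, 522, 667 and 494 and Ccl3 at 170.3, 269, 226, 242 and 111 in proximal 1, proximal 2, distal 1, distal 2 and large intestine. Cxcl16 was at 322 to 545, Ccl24 (a further eotaxin) at 32.2 to 299, Ccl6 at 43.4 to 226, Ccl12 at 28.2 to 103 and Ccl9 at 4.60 to 66.5. Ccl8 had the widest absolute range in CPM of the members named here, from 14.6 in proximal 2 to 794 in large intestine. Ccl17 and Ccl22, CCR4 ligands of dendritic cells, came from distal 1 with 261 and 84.4, while Ccl17 was at 1.53 or 0 and Ccl22 at 0 in the myeloid-like cells of the other 4 libraries.

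Blood endothelial-like cells held Cx3cl1 at 23.1, 32.6, 23.8, 25.3 and 58.7 and Cxcl11, a CXCR3 ligand, at 8.40, 12.5, 22.5, 34.9 and 86.2, with the large intestine highest for both. Cxcl12 in these cells was at 443, 532, 439, 591 and 1035, which is 0.565 to 1.17 times the free RNA and above the LEC-like level in each of the 5 libraries. Pericyte-like cells held Cxcl1 at 361, 739, 608, 897 and 879 and Ccl11 at 285, 746, 726, 387 and 955 in proximal 1, proximal 2, distal 2, cecum and large intestine, the highest named class for each. Ccl28, a mucosal CCR10 ligand, was at 97.4 in the 52 epithelial-like cells of the large intestine and at 1.07 or less as a mean in every class measured in 4 libraries or more.

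Of the other genes of the pathway (signalling receptors, proteases and the related ligands Pf4 and Ppbp), 15 were tested between LEC-like and fibroblast-like cells, of which 5 were higher in LEC-like cells and 2 lower, beside 31.6% and 36.0% of all genes. Adam10, which sheds CXCL16 and CX3CL1, was higher at 425 ± 57.4 against 100.5 ± 26.3 (SD, n = 6, log2 difference 2.13, SE 0.08, edgeR adjusted p = 8.82e-08), and Ccrl2, a chemerin-binding relative of the receptors, at 22.7 ± 4.69 against 16.0 ± 4.36 (0.59, SE 0.16, edgeR adjusted p = 0.00955). Between SEMF-like and trophocyte-like cells 3 of 7 were higher and 3 lower, beside 31.4% and 36.0% of all genes, with Adam10 higher by 0.74 and Adam17 lower by a log2 difference of -0.20, although its CPM were higher in each library (84.0 ± 5.58 against 75.5 ± 7.05, SD, n = 4). Between large bowel and small intestine 3 of 18 were higher and 4 lower in fibroblast-like cells, beside 16.0% and 14.3% of all genes, Adam10 at -0.59 and Ccrl2 at 0.69, and 0 of 9 were called in LEC-like cells by edgeR, limma-voom or DESeq2, with 0 at an unadjusted edgeR p under 0.05. Dpp4, the protease that trims several chemokines, was higher in universal fibroblast-like than in trophocyte-like cells by 3.86 (1 of 5 tested, beside 10.2% of all genes called higher), but it is a marker that named the universal class. Between VTT-like and SEMF-like cells 1 of 5 was higher, Ccrl2 by 1.01, and 2 were lower, Adam17 among them at -0.73, beside 12.1% and 11.4% of all genes.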

How the data were processed

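The deposited files are the authors' unfiltered matrices of UMI counts per gene and barcode, made with Cell Ranger (version 8.1.0 in the submitters' processing notes, 8.0.1 in the matrix headers) on build mm39 with a tdTomato sequence. A barcode counted as a cell if it held 2500 to 40000 UMIs from 1000 to 7500 genes, of which less than 10% was mitochondrial. Predicted doublets (Scrublet in scanpy 1.11.5, 4.91 to 11.4% per library) were then removed, and free RNA was not subtracted. Libraries held 109675337 to 206827504 UMIs. Classes came from lists of 8 marker genes. Fibroblast-like cells were clustered on 2000 variable genes and 30 principal components (Leiden, resolution 0.5), and the thresholds for naming clusters were set after the clusters were seen. Counts summed per library and class (at least 20 cells) were tested with edgeR 4.0.16 (TMM, filterByExpr, quasi-likelihood), with the library as a block between classes, and Benjamini-Hochberg adjustment over all genes. limma 3.58.1, DESeq2 1.42.0, other filters, free RNA removal, other class definitions and leaving out each library were alternatives. The tests between groups were tested on simulated data for 4 of the comparisons, and the filters, doublet removal, classes, clusters and free RNA count were not.

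Values are given for members reaching 20 CPM (UMIs scaled to 1000000 per class and library) in a class of at least 4 libraries and for the atypical receptors, others by counts and ranges. Exceptions are Cxcl15, Cxcl17, Ccl27a and Ccl28, for which some values or differences are given. The members, lists and rules were chosen with earlier results of these data known. Intervals were not needed, and UMI totals limit precision by counting error only. No label says that libraries of the same replicate number share mice or a day, although the number runs with the hashtag set. Both small intestinal regions have 2 libraries, so that differences which are not small can be missed as well. Cxcl13 and Cxcl1, whose fibroblast-like ranges did not overlap between these regions, were not called in the main fit. With 2 libraries each, that lack of overlap does not show a difference.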

Additional observations from a re-analysis of the deposited data

Results flagged for a closer look

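The difference between large bowel and small intestine was itself different in LEC-like and fibroblast-like cells for 4 of 36 members, by an interaction term chosen after the values were seen (edgeR, adjusted p under 0.05, over all 6 libraries). Over all 20031 genes tested, 3.67% were called more positive and 6.22% more negative in LEC-like cells. Cx3cl1 gave -3.49 on the log2 scale (SE 0.41, edgeR adjusted p = 0.00197), with -4.15 to -2.85 when each library was left out, and passed in all 6 of these fits. Ackr3 gave -1.48 (SE 0.30, edgeR adjusted p = 0.0182), with -2.05 to -1.06, and passed in all 6. Ccl2 gave -1.77 (SE 0.45, edgeR adjusted p = 0.0447), with -3.09 to -1.21, and passed only without the large intestine. Cxcl9 gave 1.06 (SE 0.27, edgeR adjusted p = 0.0452), with 0.41 to 1.41, and passed only without the cecum, the lowest value being that without the large intestine. Subset shares of fibroblast-like cells differed between these regions, and their part in the 4 differences was not tested.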

How the results depend on the processing

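Over 131 named differences and 1631 values under alternatives, 1450 kept direction and call, 102 lost the call, 28 gained one and 51 turned direction. Among the 89 called, 999 of 1108 values kept the call and 7 turned. Members above the free RNA numbered 16 to 20. Cluster 0 was added after seeing the data. The cause of each change below was not tested. With no library block, the calls lost were Ccl25, Cx3cl1 and Cxcl9 between LEC-like and fibroblast-like cells, Ccl2 and Ccl21a between SEMF-like and trophocyte-like cells, and Ackr4, Cxcl10, Cxcl13, Cxcl14 and Cxcl2 between VTT-like and SEMF-like cells.

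In fibroblast-like cells between regions, the 12 higher members became 5 with replicate 1 small intestinal libraries only and 1 in cluster 0 (4.56% and 11.6% of all genes, against 16.0%), and ran from 6 to 11 without each library. The 1 lower member became 2 with DESeq2, with no filter, with replicate 1 only and in SEMF-like cells, 3 with doublets kept, 4 in cluster 0 and 0 with 10% free RNA subtracted or with classes from clusters of all cells (0 to 2 without each library). Between distal and proximal fibroblast-like cells DESeq2 gave 4 and 1 and the replicate block 5 and 1 (lower 0 to 1 without each library). For LEC-like cells no filter gave 1 and 1 and the replicate block 4 and 1 (higher 0 to 1). The deviations of same-numbered libraries correlated at 0.35 in fibroblast-like and 0.18 in LEC-like cells. With 2 libraries per region both pairs must give the same value, so that each correlation is 1 observation. In LEC-like cells between regions, 4 were higher with replicate 1 only (4 to 8 without each library), and 1 was lower with no filter or 10% free RNA subtracted. VTT-like cells had 1 higher with 10% free RNA subtracted or no library block (1 to 2 without each library).

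Directions turned as follows, with ranges over the fits that left out 1 library each. SEMF-like against trophocyte-like: Cxcl12 -0.02 to 0.11, Cxcl13 -0.86 to 0.35 (0.27 in another). Distal against proximal LEC-like: Ackr2 -0.08 to 0.30, Ackr3 -0.19 to 0.01, Ccl21a -0.34 to 0.50 and Cxcl9 -0.20 to 0.22 (0.16 in another), Cxcl9 also 0.07 with doublets kept or classes from all cells and 0.03 with the replicate block. Distal against proximal fibroblast-like: Ackr4 -0.56 to 0.69 (-0.11 in another), Ccl11 -0.04 to 0.38, Ccl21a -1.49 to 0.93 (-0.19 in another), Ccl25 -0.02 to 0.07 (-0.00 in another), Cxcl12 -0.29 to 0.16, Cxcl16 -0.15 to 0.32 and Cxcl9 -0.18 to 0.61 (-0.13 in another), with Ccl21a at -0.28 by limma-voom and -0.20 with the replicate block and Ccl25 at -0.03 with classes from all cells. Regions, LEC-like: Ccl2 -1.86 to 0.48 (0.11 in another) and Ccl5 -8.35 to 3.33, and Cxcl12 -8.76 with 10% free RNA subtracted and -0.05 with replicate 1 only. Regions, fibroblast-like, in cluster 0: Ackr1 -1.11, Ackr3 -0.78, Ccl11 -0.28, Cxcl1 -1.89, Cxcl10 -1.54, Cxcl13 -1.37, Cxcl16 0.21, Cxcl5 1.32 and Cxcl9 -0.97. The same in SEMF-like cells: Ackr4 0.06, Cxcl14 -0.84 and Cxcl9 -0.70, and without 1 library Ccl11 -0.48 to 0.60, Cxcl1 -0.32 to 2.21 and Cxcl16 -0.84 to 0.15. Universal fibroblast-like against trophocyte-like: Ccl21a -0.16 to 0.20, Cxcl16 -0.07 to 0.36 and Cxcl9 -0.05 to 0.75, with Ccl21a at -0.00 with no filter, -0.30 with doublets kept and -0.03 at resolution 1.0.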

Other observations

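The receptors for these ligands were measured in the blood cells that came through the sort, with values for some receptors of the pathway list as means over libraries. T cell or ILC-like cells held Ccr9, the receptor for CCL25, at 365 CPM (UMIs scaled to 1000000 per class and library), Cxcr6, the receptor for CXCL16, at 324 and Ccr2 at 102. B or plasma cell-like cells held Ccr10, the receptor for CCL28, at 119, Cxcr4 at 105, Ccr7 at 95.1 and Cxcr5, the receptor for CXCL13, at 87.7. Myeloid-like cells held Cx3cr1 at 302, Cxcr4 at 252, Ccr1 at 183 and Ccrl2 at 152. In LEC-like cells the receptors Ccr9, Cxcr5 and Cx3cr1 held 1.44, 0.801 and 3.00. These levels are described and were not tested between the blood cell classes.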
